A study of Mus musculus with 20 samples.

Results

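The genes described here were 9 scaffolds of the postsynaptic density: Dlg1, Dlg2, Dlg3, Dlg4, Shank1, Shank2, Shank3, Homer1 and Dlgap1. They were chosen by name, and the estimated counts and TPM (a level corrected for transcript length and for the total of the library) of all their transcripts were summed per gene, so that 9 of 35501 genes were followed. The libraries were polyA-selected RNA-seq of mouse brain at 13.5 months of age, from the strain C57BL/6J. They formed 4 groups of 5 samples: WT hippocampus, miR-324-null hippocampus, WT neocortex and miR-324-null neocortex. The miR-324-null mice lacked Mir324 in every cell from conception. The deletion had been made by CRISPR editing of embryos of mixed C57BL/6 and CBA/ca origin and backcrossed to C57BL/6J, and per the paper the mice sequenced were male. None of the labels names a further treatment.

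The postsynaptic density is a protein layer beneath the membrane of excitatory synapses. The Dlg genes encode the membrane-associated guanylate kinases SAP97 (Dlg1), PSD-93 (Dlg2), SAP102 (Dlg3) and PSD-95 (Dlg4), whose PDZ domains hold glutamate receptors and adhesion molecules. Dlgap1 (GKAP) links the guanylate kinase domain of PSD-95 to the Shank proteins, and Homer1 links Shank to metabotropic glutamate receptors and to inositol trisphosphate receptors. Long Homer proteins form tetramers through a coiled coil at their end, and the short form Homer1a, which is induced by neuronal activity, lacks that end and competes with the long forms.

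Dlg4 lies beside the deleted gene. In the mouse build GRCm38, Mir324 spans chr11:70012043-70012131 and Dlg4 spans chr11:70016942-70047522, both on the + strand, with 4810 bases between the end of Mir324 and the start of Dlg4. Acadvl, which encodes an acyl-CoA dehydrogenase of mitochondrial fat oxidation, overlaps Mir324 on the opposite strand (chr11:70010183-70015411), and Dvl2, a Wnt pathway gene, overlaps it on the same strand (chr11:70000595-70012301). The level of miR-324 itself was not analysed here, so the genotype was not checked on the targeted gene. Acadvl averaged 35.3 ± 2.13 CPM (counts scaled to the library's TMM-adjusted total) in WT hippocampus and 36.3 ± 1.90 in miR-324-null hippocampus (SD, n = 5). In neocortex its means were 34.9 ± 1.55 in WT and 36.6 ± 1.82 in miR-324-null (SD, n = 5). For Dvl2 the means were 16.9 ± 2.47 and 17.4 ± 2.93 CPM in hippocampus of WT and miR-324-null mice, and 18.2 ± 2.15 and 18.9 ± 2.28 in WT and miR-324-null neocortex (SD, n = 5). The adjusted p (edgeR quasi-likelihood test) of these 2 genes lay at 0.598 or above in both tissues, and the level of Dlg4 is given with the other members.

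The mature arms of miR-324 are shown because the scaffolds' 3′ untranslated regions were searched for matches to them. They come from RefSeq (GRCm38.p6, chr11:70012060-70012082 and chr11:70012095-70012114, + strand), and the seed, bases 2 to 8, is in capitals.
miR-324-5p: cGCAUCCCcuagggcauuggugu
miR-324-3p: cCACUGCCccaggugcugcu
A match to the 5p seed (GGGATGC, read on the transcript's strand only) was present in the 3′ untranslated region of 1 of 9 scaffolds, Dlg4, against 1360 of 14281 measured genes (9.52%). The match at chr11:70045074-70045080, which is followed by an A, stood in Dlg4-201, Dlg4-203, Dlg4-204 and Dlg4-215. These 4 transcripts carried 90.7% of the TPM of Dlg4. A further match at chr11:70046580-70046586 lay in the longer 3′ end of Dlg4-215. The 7 matching bases of both sites are in capitals.
Dlg4 site in 4 transcripts: ggagtacccgctgtaGGGATGCa
Dlg4 site in the long 3′ end: gagtttgctggatgaGGGATGCc
A match to the 3p seed (GGCAGTG) was found in 5 of 9 scaffolds, Dlg1, Dlg2, Dlg3, Dlg4 and Shank2, against 2445 of 14281 genes (17.1%). The share over all genes was not matched for length. The longest annotated 3′ untranslated region of each scaffold ran from 1938 bases (Shank3) to 5463 bases (Dlg4). The transcripts with the match carried 43.9% of Dlg1 TPM, 89.5% of Dlg2, 46.3% of Dlg3, 98.2% of Shank2 and 0.574% of Dlg4. The sites of Dlg3 (chrX:100817849-100817855) and Shank2 (chr7:144421681-144421687) are printed as examples, with the match in capitals.
Dlg3: ttcccagagtctgatGGCAGTGa
Shank2: ggcccctaggtccttGGCAGTGg
Shank1, Shank3, Homer1 and Dlgap1 held neither sequence in the annotated 3′ untranslated regions searched. The paper describes another reported form of miR-324-3p with a different seed, and that seed was not searched. A match of letters is a description and was not tested as a site of binding.

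Total estimated counts ran from 12752439 to 19617765 over the 20 libraries. All 7 hippocampal field markers were higher in WT hippocampus than in WT neocortex, and 5 of 6 neocortical layer markers were lower, by the edgeR test described below. Markers of neighbouring structures were high in some libraries. The 5 choroid plexus markers summed to 6920 TPM in WT hippocampus replicate 3, 5988 in miR-324-null hippocampus replicate 5 and 1278 in miR-324-null neocortex replicate 2, against 17.3 to 177 in the other 17 libraries. The 7 markers of striatal projection neurons summed to 165 to 430 TPM in WT neocortex and 280 to 818 TPM in miR-324-null neocortex. Leaving out miR-324-null neocortex replicate 5 took the genes called between genotypes in neocortex from 47 of 14918 (0.315%) to 565 of 15059 (3.75%). Some scaffold gene results below are also given without the libraries rich in these markers. The transcripts and the Homer1 short-form share were examined without single libraries only. The immediate early genes are given for all libraries only.

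All 9 scaffolds were detected in every library, and their levels covered a range of about an order of magnitude on the TPM scale. Dlg4 stood highest in all 4 groups. Its TPM ranged from 416 to 500 in WT hippocampus, 404 to 521 in miR-324-null hippocampus, 383 to 487 in WT neocortex and 407 to 462 in miR-324-null neocortex. Dlgap1 came next, at 149 to 198 TPM over all libraries, followed by Shank1 with group medians of 106 to 138 TPM. No Dlg4 value fell within the range of Dlgap1 in any group, and the ranges of Dlgap1 and Shank1 were also apart in all 4 groups.

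Below Shank1 the members lay close together. In WT hippocampus the medians were 86.4 TPM for Dlg3, 80.9 for Dlg2, 78.2 for Shank3 and 69.2 for Dlg1, and each of these neighbours overlapped the next in range. Shank2 (median 46.5 TPM) and Homer1 (40.5 TPM) stood last and overlapped each other. In WT neocortex Homer1 stood at rank 4 with a median of 100.1 TPM, above Dlg1 (95.1), Dlg2 (93.4), Dlg3 (74.0), Shank3 (62.9) and Shank2 (48.9). There the ranges of Homer1, Dlg1 and Dlg2 overlapped in order, Dlg2 was apart from Dlg3 and Dlg3 from Shank3, and Shank3 overlapped Shank2. In miR-324-null neocortex Homer1 stood at rank 7 (median 69.3 TPM), with a range from 54.4 to 136 TPM that reached across those of Dlg2, Dlg1, Dlg3 and Shank3. Of 8 neighbouring pairs, 4 were apart in WT hippocampus, 3 in miR-324-null hippocampus and 5 in each neocortex group. These sums include non-coding transcripts, and the order depends on them. On protein-coding transcripts alone the WT hippocampus medians were 46.3 TPM for Shank2, 40.5 for Homer1, 38.2 for Dlg3 and 32.3 for Dlg1. In WT neocortex they were 100.1 for Homer1, 58.3 for Dlg1, 48.4 for Shank2 and 33.5 for Dlg3.

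**Figure D1:**
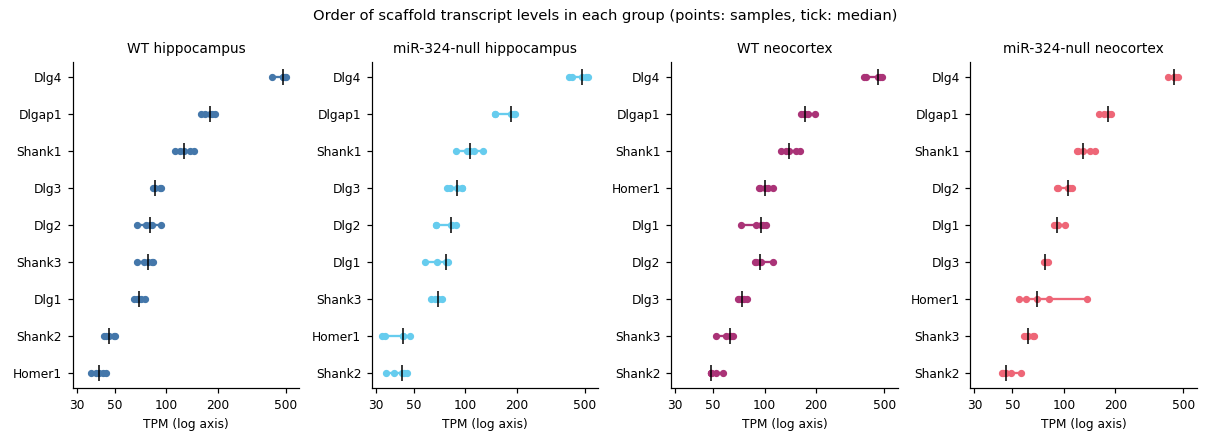
TPM (x, log axis) of the 9 scaffold genes, with coding and non-coding transcripts summed, in each of the 4 groups, ordered by the group median. Points are the 5 samples, the line spans their range and the tick is the median. Dlg4 is highest in each panel, Homer1 is last in WT hippocampus (median 40.5 TPM) and at rank 4 in WT neocortex (median 100.1 TPM), and its points spread from 54.4 to 136 TPM in miR-324-null neocortex.

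The first comparison asked whether loss of miR-324 changed scaffold mRNA in the hippocampus. No scaffold was called at an adjusted p of 0.05 (edgeR quasi-likelihood test), where 17 of 14785 genes (0.115%) were called. All 9 log2 fold changes (miR-324-null over WT) lay below 0, with a median of -0.06 against 0.00 over all genes tested, of which 49.7% lay below 0. At an unadjusted p of 0.05, 3 of 9 scaffolds passed, against 1634 of 14785 genes (11.1%), and these 3 were the Shank genes. In 0 of 9 scaffolds were the 2 genotypes apart with no overlap, as they were in 2.56% of all genes. DESeq2's Wald test called 1 scaffold, Shank1, where it called 139 of 14756 genes (0.942%).

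Shank1, the Shank protein found mainly in neurons, measured 682, 675, 620, 640 and 599 CPM in the 5 WT hippocampus samples. The miR-324-null hippocampus samples measured 602, 496, 571, 508 and 508 CPM. A single miR-324-null value, 602, overlapped the WT group, whose lowest value was 599. The log2 fold change was -0.26 (SE 0.07, 0.835-fold), with an adjusted p of 0.232 by edgeR and 0.0171 by DESeq2's Wald test. With the transcript length offset the adjusted p was 0.405 by edgeR and 0.140 by DESeq2, and without the libraries rich in choroid plexus markers the log2 fold change was -0.26.

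Shank2 and Shank3 were lower on average to a similar degree. In WT hippocampus Shank2 measured 245, 220, 204, 226 and 209 CPM. The corresponding miR-324-null samples measured 187, 169, 203, 206 and 197 CPM, and the log2 fold change was -0.20 (SE 0.07, edgeR adjusted p = 0.335). Shank3, the family member with haploinsufficiency in Phelan-McDermid syndrome, measured 305, 333, 313, 315 and 256 CPM in the WT hippocampus samples. It measured 284, 260, 263, 244 and 276 CPM in the hippocampus of miR-324-null mice. A log2 fold change of -0.20 (SE 0.07, edgeR adjusted p = 0.350) was estimated for it. For both genes the groups overlapped, Shank2 through WT replicate 3 alone and Shank3 through WT replicate 5 alone.

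Dlg4, the gene with the miR-324-5p matches printed above, measured 935, 917, 888, 853 and 807 CPM in WT hippocampus. In miR-324-null hippocampus it measured 839, 821, 830, 801 and 861 CPM. The miR-324-null values lay within or just under the lower part of the WT range, and the log2 fold change was -0.08 (SE 0.05, edgeR adjusted p = 0.590). The remaining 5 members, Dlg1, Dlg2, Dlg3, Homer1 and Dlgap1, had log2 fold changes from -0.06 to -0.01 with adjusted p of 0.795 or above. The sign of Dlg1 turned to 0.04 once transcript length was used as an offset, in edgeR and in DESeq2.

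The same question was asked in the neocortex. Again no scaffold was called by edgeR, and 8 of 9 log2 fold changes lay below 0, with a median of -0.04 against 0.00 over all genes, of which 48.1% lay below 0. Of the 9, 2 passed an unadjusted p of 0.05 (Dlg3 and Shank1), against 1819 of 14918 genes (12.2%). DESeq2's Wald test called Shank1 alone, where it called 237 of 14908 genes (1.59%).

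Shank1 in neocortex was at 709, 723, 604, 722 and 709 CPM in WT samples. It was at 592, 568, 531, 631 and 630 CPM in miR-324-null samples. WT replicate 3 was the sole WT value within the miR-324-null range, and the other 4 WT samples were above all 5 miR-324-null samples. The log2 fold change was -0.22 (SE 0.06, 0.856-fold), with an adjusted p of 0.166 by edgeR and 0.0318 by DESeq2's Wald test. It shrank to -0.14 with a transcript length offset in edgeR, with an adjusted p of 0.549, and it was -0.20 without the libraries rich in striatal markers, with an edgeR adjusted p near 1.

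Homer1 had the largest difference in neocortex and the widest spread. The WT samples measured 261, 227, 194, 239 and 275 CPM. The miR-324-null samples measured 129, 126, 142, 183 and 337 CPM, so that 4 of 5 lay below every WT sample and replicate 5 lay above every WT sample. Over all samples the log2 fold change was -0.38 (SE 0.23, edgeR adjusted p = 0.556).

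Homer1 in neocortex turned on that library. Without miR-324-null neocortex replicate 5 the log2 fold change of Homer1 was -0.71 with an edgeR adjusted p of 0.00715, in a fit that called 3.75% of genes. That library had the lowest summed striatal markers of its group (280 TPM), the other 4 standing at 424, 320, 818 and 567 TPM in replicates 1 to 4. It also had the highest summed neocortical layer markers (216 TPM, against 156 to 178 in the other 4), the lowest hippocampal field markers (102 TPM, against 128 to 147) and the lowest thalamic markers (9.98 TPM, against 14.5 to 21.2). Between the genotypes in neocortex, the 7 striatal markers had a median log2 fold change of 1.06. All 7 had an unadjusted edgeR p of 0.05 or below, as had 12.2% of all genes. The 6 layer markers had a median of -0.23 with 4 at such a p, and the 7 hippocampal field markers had 0.60 with 4. None of the markers in these lists was called by edgeR after adjustment. Leaving out the libraries over 400 TPM in striatal markers removed WT neocortex replicate 2 and miR-324-null neocortex replicates 1, 3 and 4. The 2 miR-324-null samples left, at 126 and 337 CPM of Homer1, gave a log2 fold change of -0.06. The part of tissue makeup in the Homer1 values was not tested.

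Among the rest, Dlg3 was the member whose genotype groups did not overlap in neocortex. It measured 179, 180, 180, 168 and 175 CPM in WT and 189, 181, 184, 189 and 187 CPM in miR-324-null samples. All 5 miR-324-null values were higher than all WT values by a small margin, with a log2 fold change of 0.08 (SE 0.04, edgeR adjusted p = 0.399). Such separation was found in 1 of 9 scaffolds and in 2.3% of all genes tested. Dlg4 measured 798, 891, 700, 729 and 853 CPM in WT and 799, 729, 749, 763 and 776 CPM in the neocortex of miR-324-null mice. Its log2 fold change was -0.05 (SE 0.06, edgeR adjusted p = 0.804), and the miR-324-null values all lay inside the WT range. Dlg1, Dlg2, Shank2, Shank3 and Dlgap1 had log2 fold changes between -0.13 and -0.01 with adjusted p of 0.477 or above.

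**Figure D2:**
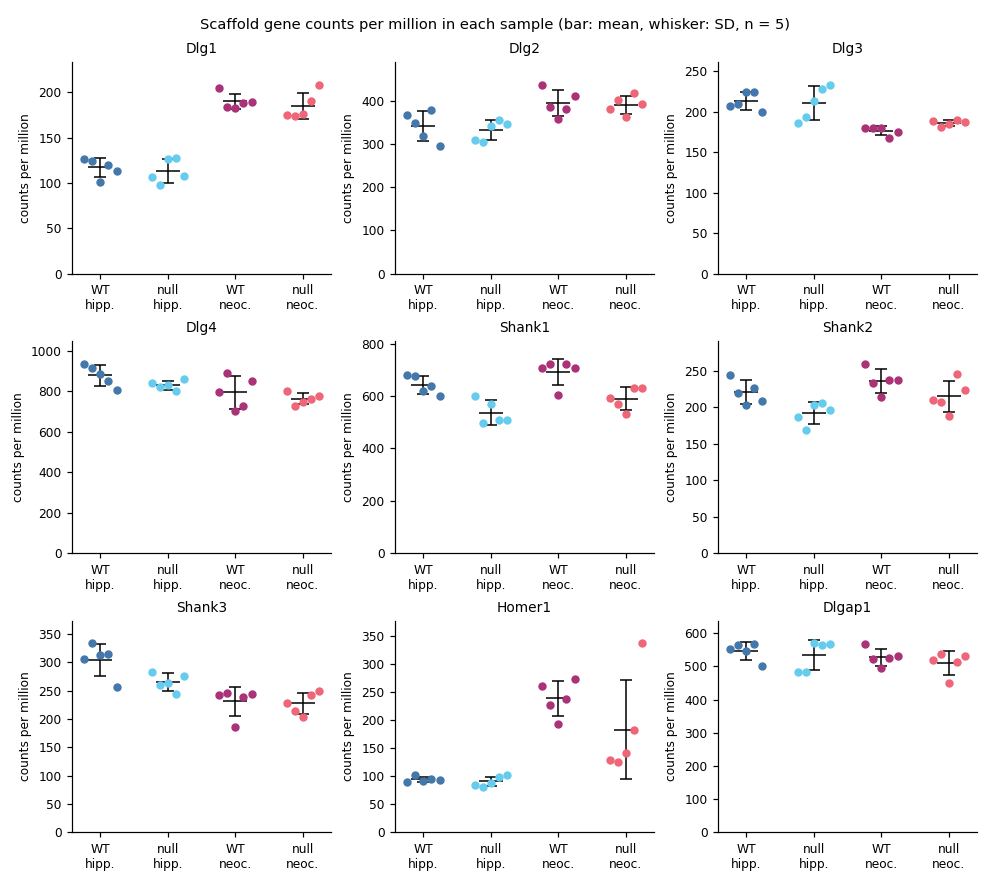
CPM (y, from 0) of each scaffold gene in the 5 samples of each group, with WT and miR-324-null hippocampus to the left and WT and miR-324-null neocortex to the right of each panel; the bar is the mean and the whisker the SD. In hippocampus and in neocortex the miR-324-null mean of Shank1 lies under the WT mean while the points overlap, and for Homer1 a single miR-324-null neocortex sample lies at 337 CPM and the other 4 at 126 to 183 CPM.

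Whether genotype differences differed between tissues was tested as an interaction over all 20 samples. No scaffold was called by edgeR or by DESeq2, no scaffold had an unadjusted edgeR p of 0.05 or below, and over all genes 3 of 15379 (0.0195%) were called by edgeR and 11 of 14463 (0.0761%) by DESeq2. The interaction (hippocampus minus neocortex) was 0.32 on the log2 scale for Homer1 (SE 0.27, edgeR adjusted p = 0.958), and it was 0.66 (edgeR adjusted p = 0.0716) without miR-324-null neocortex replicate 5, 0.22 without replicate 1 of that group and 0.21 without replicate 2. For Shank3, lower on average in miR-324-null samples mainly in hippocampus, it was -0.17 (SE 0.11, edgeR adjusted p = 0.933). For Shank1 it was -0.03 (SE 0.09, edgeR adjusted p = 0.994).

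Between tissues the scaffolds differed more. In WT mice 5 of 9 were called by edgeR, 2 higher and 3 lower in hippocampus, where 5370 of 14883 genes (36.1%) were called, 18.1% higher and 18.0% lower. In miR-324-null mice 4 of 9 were called, 1 higher and 3 lower, where 4108 of 15021 genes (27.3%) were called, 13.4% higher and 13.9% lower. DESeq2 with transcript length as an offset called 7 of 9 in miR-324-null mice, beside 25.4% of all genes, adding Dlg3, Dlg4 and Shank1. The tissues did not overlap in CPM for 4 of 9 scaffolds in WT mice (Dlg1, Dlg3, Shank3 and Homer1) and for 4 of 9 in miR-324-null mice (Dlg1, Dlg2, Dlg4 and Homer1), beside 26.4% and 21.1% of all genes tested. In bulk tissue, fewer cells of a type and less RNA per cell cannot be told apart.

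Homer1 was lower in hippocampus, with the largest difference of the 9. WT hippocampus measured 89.9, 102, 92.1, 95.7 and 93.9 CPM, all below the lowest WT neocortex sample at 194 CPM. The log2 fold change (hippocampus over neocortex) was -1.33 in WT (SE 0.08, 0.396-fold, edgeR adjusted p = 5.06e-08). In miR-324-null mice hippocampus measured 84.7, 81.1, 89.0, 98.3 and 102 CPM, again below every neocortex sample, and the log2 fold change was -1.01 (SE 0.24, edgeR adjusted p = 0.00708). Without miR-324-null neocortex replicate 5 it was -0.67, and without the libraries rich in striatal markers it was -1.34, with 2 miR-324-null neocortex samples left.

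Dlg1 was the other member with a strong fall from neocortex to hippocampus. It measured 127, 124, 101, 120 and 113 CPM in WT hippocampus, against 204, 184, 183, 188 and 190 CPM in WT neocortex. The groups did not overlap, and the log2 fold change was -0.70 (SE 0.06, edgeR adjusted p = 9.96e-07). In miR-324-null mice it was -0.71 (SE 0.08, edgeR adjusted p = 5.23e-05). With a transcript length offset in edgeR these values shrank to -0.36 (adjusted p = 0.00259) and -0.28 (adjusted p = 0.0121), beside a short Dlg1 transcript, described with the transcripts, that was more abundant in hippocampus. Dlg2 fell in the same direction, by 0.21 on the log2 scale in WT (edgeR adjusted p = 0.0422) and by 0.23 in miR-324-null mice (edgeR adjusted p = 0.0144). Its WT call was lost in 7 of 10 fits that left out 1 library (WT hippocampus replicates 2, 3 and 5 and WT neocortex replicates 1, 2, 4 and 5), with -0.17 (edgeR adjusted p = 0.119) without WT hippocampus replicate 3, the library rich in choroid plexus markers. The WT call was also lost with DESeq2 size factors, with no filter on low counts and with a transcript length offset in edgeR (adjusted p of 0.0505 to 0.0554). Its call in miR-324-null mice was lost without the libraries rich in striatal markers (-0.25, edgeR adjusted p = 0.110).

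Dlg3 and Shank3 were higher in hippocampus. Dlg3 measured 207, 209, 225, 224 and 199 CPM in WT hippocampus, all above the highest WT neocortex value of 180 CPM, a log2 fold change of 0.27 (SE 0.04, edgeR adjusted p = 0.000337). In miR-324-null mice its value was 0.18 (SE 0.07, edgeR adjusted p = 0.0611), with values of 186, 194, 213, 228 and 233 CPM in hippocampus. There Dlg3 passed in 6 alternative fits and not in the other 14. Among the 6 were the edgeR fits without miR-324-null hippocampus replicate 1 (adjusted p = 0.0184) or replicate 2 (adjusted p = 0.0452). DESeq2 with a length offset was another. Shank3 rose by 0.40 on the log2 scale in WT hippocampus (SE 0.08, edgeR adjusted p = 0.00223) and by 0.23 in miR-324-null hippocampus (SE 0.07, edgeR adjusted p = 0.0256). The WT hippocampus values of Shank3 exceeded the WT neocortex values, which were 242, 247, 186, 240 and 243 CPM.

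Shank3 in miR-324-null mice was less secure. Its call was lost without the libraries rich in choroid plexus markers (log2 fold change 0.19, adjusted p = 0.113), and without those rich in striatal markers (log2 fold change 0.21, adjusted p = 0.202), a fit that held 2 miR-324-null neocortex samples. It was also lost without miR-324-null hippocampus replicate 1 or miR-324-null neocortex replicate 2 or 3, with adjusted p of 0.0539 to 0.0678. In all, the Shank3 call was lost in 6 alternative fits, which include a change of processing with all libraries kept. In the fit without striatal-rich libraries 2 of 9 scaffolds were called, Dlg1 and Homer1. Dlg4 had log2 fold changes of 0.15 in WT (SE 0.07, edgeR adjusted p = 0.110) and 0.13 in miR-324-null mice (SE 0.05, edgeR adjusted p = 0.0641), and Shank1, Shank2 and Dlgap1 lay between -0.16 and 0.07 with adjusted p of 0.156 or above. Leaving out WT neocortex replicate 2 brought Dlg4 to 0.19 in WT with an adjusted p of 0.0415, leaving out miR-324-null neocortex replicate 1 brought it to 0.15 in miR-324-null mice with an adjusted p just under 0.05, and leaving out WT neocortex replicate 3 brought Shank1 to -0.14 in WT with an adjusted p of 0.0395.

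**Figure D3:**
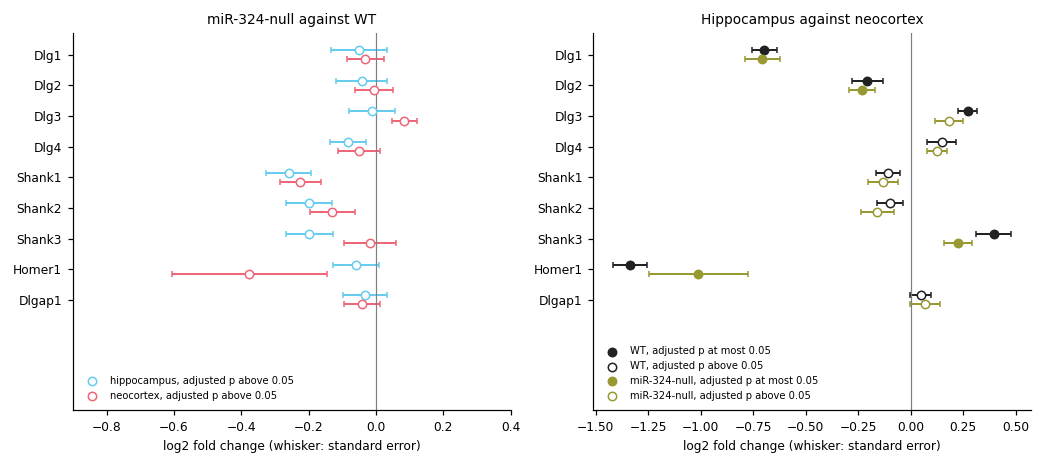
Log2 fold change (x) of each scaffold gene with its standard error, for miR-324-null against WT in each tissue (left) and for hippocampus against neocortex in each genotype (right); filled points passed an edgeR adjusted p of 0.05. No point is filled on the left, where Homer1 in neocortex has the widest error (SE 0.23), and on the right Dlg1 and Homer1 are filled at -0.70 and -1.33 in WT.

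The 9 genes are annotated with 115 transcripts in the table, from 6 for Shank1 and Shank2 to 22 for Dlg4. A few transcripts carried most of the level. Dlg2-204 held 86.4% of Dlg2 TPM, Shank1-203 held 78.3% of Shank1, Dlgap1-211 held 77.7% of Dlgap1, Shank3-201 held 75.8% of Shank3 and Shank2-205 held 72.9% of Shank2, with Shank2-202 at 23.6%. Dlg4 was divided between Dlg4-203 (63.7%, coding for 724 residues) and Dlg4-201 (25.3%, 664 residues). In Shank1 a retained-intron transcript of 987 bases, Shank1-206, held 12.7%, and 339 exonic bases of Shank1 overlapped the gene 1700008O03Rik on the opposite strand.

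Of the transcripts, 51 passed the count filter in the hippocampal genotype comparison and 59 in the neocortical comparison, and none was called between genotypes by edgeR, the sole tool run at this level. After adjustment 0.0291% and 0.0249% of all transcripts were called. At an unadjusted p of 0.05, 3 of 51 and 10 of 59 scaffold transcripts passed. The share of all transcripts at that unadjusted p is not given, so whether these counts are unusual cannot be told. Shank1-203, the 2167-residue form, had the same direction as its gene, with log2 fold changes of -0.26 in hippocampus (SE 0.07, edgeR adjusted p = 0.909) and -0.24 in neocortex (SE 0.07, edgeR adjusted p = 0.566). Its TPM was 104, 108, 101, 105 and 96.5 in WT hippocampus and 94.5, 77.3, 93.5, 84 and 82.5 in miR-324-null hippocampus, with no overlap. In neocortex the genotypes overlapped, at 103 to 119 TPM in WT and 91.4 to 106 TPM in miR-324-null samples. The share of all transcripts without overlap is not given. Dlg4-203 averaged 298 ± 16 TPM in WT hippocampus and 285 ± 10.2 in the hippocampus of miR-324-null mice, and Dlg4-201 averaged 132 ± 9.36 and 123 ± 17.7 TPM (SD, n = 5).

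Between tissues 11 of 57 scaffold transcripts tested were called in WT mice, 5 higher and 6 lower in hippocampus, against 10.1% of all transcripts. In miR-324-null mice 8 of 57 were called, 4 in each direction, against 6.73% of all transcripts. The called transcripts came from 5 genes in WT and from 4 in miR-324-null mice.

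Homer1 transcripts differed in how their coding ends were spliced. All forms shown share the coding sequence that leads up to chr13:93356079 (GRCm38, + strand). The lines below give the last 12 shared bases in lower case and the next 12 bases of each form in capitals. Homer1-204, of 186 residues, is the length of Homer1a and runs on at the next genomic base, so that 11 residues follow the junction. Homer1-203 (366 residues) and Homer1-202 (370 residues, with another first exon) are long forms, and Homer1-206 (233 residues) is a further short form.
Homer1-204: atttccacatagGTACACATTCAA
Homer1-206: atttccacatagACAGCCAACTTT
Homer1-203: atttccacatagTGCTGGGGATCG
Homer1-202: atttccacatagTTCAGCAATCAG

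All 4 of these transcripts were called between WT tissues, although the call of Homer1-206 (edgeR adjusted p = 0.0413) was lost in 10 of 13 alternative fits (10 that left out 1 library and 3 with another count filter or a replicate block). Homer1-204 had 7.2, 8.8, 7.4, 7.4 and 8.4 TPM in WT hippocampus and 34.6, 25.6, 22.5, 30.8 and 32.4 TPM in WT neocortex, a log2 fold change of -1.86 (SE 0.13). The long forms Homer1-202 and Homer1-203 had log2 fold changes of -1.0 and -0.91, and Homer1-206 had -1.15. In miR-324-null mice Homer1-202 and Homer1-203 had log2 fold changes of -0.61 (edgeR adjusted p = 0.0445) and -0.92 (edgeR adjusted p = 0.0336), and these calls were lost in 10 and 8 of 13 alternative fits. Homer1-204 had a log2 fold change of -1.59 (SE 0.50, edgeR adjusted p = 0.10). Its TPM in miR-324-null neocortex was 9.5, 8.2, 10.4, 18.9 and 48.2, so that 4 of 5 samples lay below every WT neocortex sample and replicate 5 lay above them all.

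The share of short forms was taken as the percent of Homer1 TPM in the 8 protein-coding transcripts of under 250 residues. WT neocortex had shares of 43.4, 45.1, 46.6, 47.3 and 39.3%, and miR-324-null neocortex had 29.1, 26.6, 28.9, 32.1 and 43.2%. WT hippocampus had 28.9, 37.5, 29.1, 24.7 and 35.3%, and miR-324-null hippocampus 19.2, 19.7, 29.8, 21.4 and 36.3%. The short share was thus highest in WT neocortex, and miR-324-null neocortex overlapped it through replicate 5 alone.

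The mean share in neocortex was 32% ± 6.56 in miR-324-null and 44.3% ± 3.17 in WT mice (SD, n = 5), a difference of -12.4 points (two-sided exact permutation test, p = 0.0159, 0.0317 after adjustment over 4 comparisons). Taken from estimated counts in place of TPM, that difference was -12.1 points (exact permutation p = 0.0476) and did not pass after adjustment (0.0741). In hippocampus the means were 25.3% ± 7.50 and 31.1% ± 5.19, a difference of -5.84 points (exact permutation p = 0.190, adjusted 0.190), or -7.18 points on estimated counts (exact permutation p = 0.0556, adjusted 0.0741). WT hippocampus was below WT neocortex by -13.3 points with no overlap (exact permutation p = 0.00794, the smallest that 5 against 5 allows, adjusted 0.0317). In miR-324-null mice that tissue difference was -6.72 points (exact permutation p = 0.167, adjusted 0.190), and it was -3.92 points without miR-324-null neocortex replicate 5. Whether the tissue difference itself differed between genotypes was not tested. The neocortical difference was -15.2 points without miR-324-null neocortex replicate 5.

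The Homer1 transcripts were read beside other activity-regulated genes. Of 12 immediate early genes, 11 had log2 fold changes below 0 in miR-324-null neocortex with a median of -0.60, against 0.00 over all genes. Of the 12, 5 had an unadjusted edgeR p of 0.05 or below (12.2% of all genes), 2 were called by DESeq2 (1.59% of all genes) and 1 by edgeR (0.315% of all genes). The gene called by edgeR was Egr1, a zinc finger transcription factor, with a log2 fold change of -0.91 (SE 0.17, edgeR adjusted p = 0.0480). In hippocampus all 12 lay below 0 with a median of -0.40, and none was called by edgeR or DESeq2 or had an unadjusted p of 0.05 or below. The summed TPM of the 12 ranged from 517 to 1031 in WT neocortex and from 234 to 643 in miR-324-null neocortex. In miR-324-null neocortex replicate 5, the library with the highest Homer1, the sum was 361 TPM, the median of its group. Single genes went both ways in that library. Egr1 was at 204 TPM, against 97.4 to 177 TPM in the other samples of the group. Fosb was at 9.31 TPM, against 5.51 to 7.20 TPM. Arc (33.5 TPM) and Fos (12.1 TPM) lay below their group medians of 62.8 and 12.9 TPM.

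**Figure D4:**
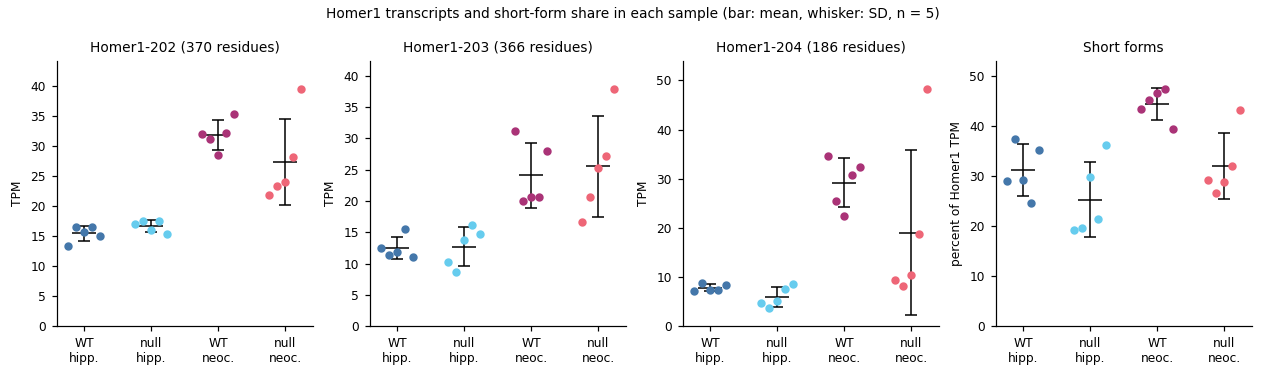
TPM (y, from 0) of the long forms Homer1-202 and Homer1-203 and of the short form Homer1-204, and the percent of Homer1 TPM in short forms, in the 5 samples of each group; the bar is the mean and the whisker the SD. Homer1-204 lies at 22.5 to 34.6 TPM in WT neocortex, and in miR-324-null neocortex 4 samples lie at 8.2 to 18.9 TPM and replicate 5 lies at 48.2 TPM.

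Dlg1 had 5 transcripts with at least 10% of its TPM, namely Dlg1-203, Dlg1-202, Dlg1-213, Dlg1-204 and Dlg1-209. Dlg1-213 is a non-coding processed transcript of 470 bases (chr16:31838159-31852033), and it went against its gene. It measured 19.2, 14.7, 23.9, 21.3 and 18.8 TPM in WT hippocampus and 1.2, 1.8, 2.7, 4.9 and 2.9 TPM in WT neocortex. The log2 fold change was 2.92 in WT (SE 0.35, edgeR adjusted p = 0.000415) and 3.04 in miR-324-null mice (SE 0.48, edgeR adjusted p = 0.00449), with no overlap in either genotype. In miR-324-null neocortex it ranged from 0.764 to 5.63 TPM. Dlg1-213 did not pass the alternative filter of at least 10 counts in every sample. Its lowest values, in neocortex, thus rest on few counts, and the size of the fold change is uncertain. The coding form Dlg1-204 (834 residues) fell by 1.19 on the log2 scale in WT (SE 0.17) and by 1.18 in miR-324-null mice (SE 0.17), both called. Dlg1-206 fell by 1.3 on the log2 scale in WT, and Dlg1-203 (905 residues) fell by 0.69 in miR-324-null mice, a call lost in 5 of 13 alternative fits.

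One Dlg3 transcript and a pair of Dlg4 transcripts were higher in hippocampus. Dlg3-208, a processed transcript that held 51.3% of Dlg3 TPM, averaged 48.6 ± 5.05 TPM in miR-324-null hippocampus and 35.8 ± 2.46 in miR-324-null neocortex, a log2 fold change of 0.54 (SE 0.11, edgeR adjusted p = 0.0167). In WT mice its value was 0.29 (SE 0.09, edgeR adjusted p = 0.0680). The coding forms Dlg3-201, Dlg3-202 and Dlg3-204 held 16.6%, 15% and 11.9% of Dlg3 TPM. Dlg4-201 rose by 0.36 in WT hippocampus (edgeR adjusted p = 0.0346) and by 0.37 in miR-324-null hippocampus (edgeR adjusted p = 0.0185), calls that were lost in 8 and 4 of 13 alternative fits. Dlg4-215, the form with both miR-324-5p matches, measured 8.1, 10.2, 11.1, 10.6 and 9.5 TPM in WT hippocampus and 8.8, 9.7, 7.1, 8.4 and 6.8 TPM in miR-324-null hippocampus, with overlap. It was higher in hippocampus than neocortex in both genotypes, by 0.56 in WT (edgeR adjusted p = 0.00172) and 0.52 in miR-324-null mice (edgeR adjusted p = 0.0495). The WT call held in all 13 alternative fits and the miR-324-null call was lost in 9 of them. Shank3-201 and Dlgap1-207 passed in WT at 0.43 (edgeR adjusted p = 0.0341) and 1.32 (edgeR adjusted p = 0.0412), and each of these calls was lost in 10 of 13 alternative fits.

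**Figure D5:**
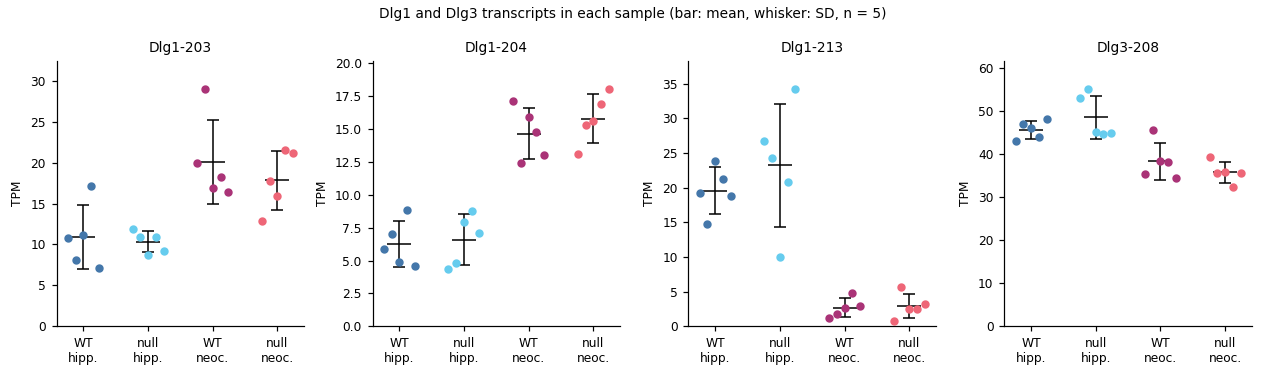
TPM (y, from 0) of Dlg1-203, Dlg1-204, Dlg1-213 and Dlg3-208 in the 5 samples of each group, with the mean (bar) and SD (whisker). Dlg1-213 lies at 14.7 to 23.9 TPM in WT hippocampus and at 1.2 to 4.9 TPM in WT neocortex, the reverse of Dlg1-204.

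The scaffolds' partners were examined as 47 genes: 23 paralogues and other scaffolds, 14 signalling enzymes and 10 receptors and adhesion molecules. Between genotypes none was called by edgeR in either tissue, 7 passed an unadjusted p of 0.05 in hippocampus and 7 in neocortex, beside 11.1% and 12.2% of all genes. DESeq2 called 0 and 3 of the 47, beside 0.942% and 1.59% of all genes. Between tissues 33 of 47 were called in WT mice (18 higher and 15 lower in hippocampus) and 25 of 47 in miR-324-null mice (12 and 13), beside 36.1% and 27.3% of all genes. Their median log2 fold changes were -0.01 and -0.03. The largest were Homer3, a long Homer paralogue, whose values were 2.89 (WT) and 2.61 (miR-324-null), and Grip2, a PDZ scaffold of AMPA receptors, at -1.12 and -1.17. Homer3 averaged 49.8 ± 4.33 CPM in WT hippocampus and 6.71 ± 0.868 in WT neocortex (SD, n = 5), the opposite direction to Homer1. Lin7a, a PDZ partner of Dlg proteins, had -0.87 and -0.97, and Itpr1, an inositol trisphosphate receptor bound by Homer, had -0.84 and -0.86. Abhd17c, an enzyme that removes palmitate from PSD-95, was at 0.85 in WT, and Magi1, a guanylate kinase scaffold, was at -0.83 in miR-324-null mice.

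Within groups the members tended to vary together. Over the 20 samples, the deviations of log2 CPM from the group means correlated above 0 in 35 of 36 pairs of members, with a median Pearson r of 0.44, from 0.82 for Dlg2 with Shank2 to -0.25 for Dlg3 with Shank1. These points share libraries, and depth and tissue makeup were not separated from them. No share over pairs of all genes is given beside this count, so whether it is particular to the members cannot be told. The genes outside the lists whose pattern over 20 samples was most like the mean of the 9 members were Arhgap31 (r = 0.87), Epb41l1 (r = 0.86), Zc3h7b (r = 0.83), Scara3 (r = 0.83) and Gfod1 (r = 0.83), among 15379 genes.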

How the data were processed

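Hippocampus and neocortex of WT and miR-324-null mice were sequenced from Illumina TruSeq Stranded mRNA libraries. The authors ran Kallisto on the reads against a mouse GRCm38 transcriptome and deposited estimated counts, TPM and transcript lengths for 115270 transcripts per sample. The submitters' processing notes name a human build, but the identifiers are those of mouse. The use of strand was not given in the sources used here. The deposited lengths, in bases, enter as other values: effective lengths were the same in all files. By identifier, 113492 transcripts matched GENCODE M21, and the other 1778 (at most 0.61% of a sample's counts) were left out.

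Estimated counts were summed per gene, rounded and tested with edgeR 4.0.16 in R 4.3.3 (quasi-likelihood test, TMM scaling, filterByExpr, Benjamini-Hochberg over all genes tested, threshold 0.05). Each fit held the 10 samples compared, and the interaction used all 20. Printed CPM used TMM-scaled totals over 20 samples. DESeq2 1.42.0, other scalings, count filters, length offsets, a replicate block and leaving out each sample were alternatives. The Homer1 share was tested with an exact permutation test (scipy 1.17.1). Scripts were tested on simulated data. Counting depth was 12752439 to 19617765 estimated counts per sample. Genes named in the text were the 9 members, up to 5 partners with the largest change per comparison, transcripts with at least 10% of a member's TPM and the 5 genes most like the members, and transcripts past the threshold were added after their values were seen. The immediate early genes Egr1, Fosb, Arc and Fos were named beside them. The members and lists were chosen with earlier results of these data known. Nothing in the labels says whether equal replicate numbers in hippocampus and neocortex mark the same mouse, nor that samples of a group came from separate animals, so p-values measure the spread between these samples.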

Additional observations from a re-analysis of the deposited data

Results flagged for a closer look

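Values were set apart where the highest or lowest of 5 samples lay far from the other 4 by Dixon's test, which chance does in about 1 in 20 groups; 156 sets of values were examined and 11 stood out. Homer1 reached 337 CPM in miR-324-null neocortex against a group median of 142, and Homer1-204 reached 48.2 TPM against a median of 10.4, both in replicate 5. In WT neocortex replicate 3, Shank1 was low at 604 CPM (median 709) and Shank3 low at 186 CPM (median 242). Dlg4 was low at 416 TPM in WT hippocampus replicate 5 (median 484), and Dlg1-203 was high at 28.9 TPM in WT neocortex replicate 2 (median 18.2).

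Among marker lists, summed choroid plexus TPM reached 6920 in WT hippocampus replicate 3, 5988 in miR-324-null hippocampus replicate 5 and 1278 in miR-324-null neocortex replicate 2. Thalamic neuron markers summed to 49.9 TPM in WT hippocampus replicate 5 (median 29.1), the library with the low Dlg4, and immediate early genes to 450 TPM in miR-324-null hippocampus replicate 3 (median 207). The part of these tissues in the scaffold values was not tested beyond leaving out libraries.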

How the results depend on the processing

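Between genotypes the count of scaffolds called was 0 in both tissues under each alternative tried except DESeq2's Wald test (1 in each tissue, Shank1) and leaving out single samples in neocortex (0 to 1, Homer1 without miR-324-null replicate 5). Between tissues, leaving out single samples gave 4 to 6 calls in WT and 3 to 5 in miR-324-null mice, where DESeq2 with a length offset gave 7 and the fit without libraries rich in striatal markers, added after seeing the data, gave 2 (it held 2 miR-324-null neocortex samples). The cause was not tested.

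Transcript calls between WT tissues were 7 to 10 without single samples and 7 with no filter on low counts. In miR-324-null mice they were 4 to 8, and 5 with no filter. Over the other count filters and the replicate block they ran from 7 to 12 in WT and from 4 to 11 in miR-324-null mice. With the length offset Dlg1 turned to 0.04 in hippocampus (edgeR 0.043, DESeq2 0.044) and Dlg2 to 0.043 and 0.040 in neocortex. Without the striatal-rich libraries Dlg2 was 0.00078, Shank3 0.022 and Dlgap1 0.013 in neocortex, and Shank3 was 0.0033 without the choroid-rich library. Leaving out single samples moved Dlg3 from -0.052 to 0.029 in hippocampus, Dlg2 from -0.038 to 0.032 and Shank3 from -0.086 to 0.017 in neocortex, and the interaction of Shank1 from -0.073 to 0.014.

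In no comparison did every same-numbered pair correlate above 0.1. In the miR-324-null tissues all 5 correlations lay above 0 (0.016 to 0.18, mean 0.11 against -0.027 for other numbers), 3 passed 0.1 and 3 of 5 samples correlated best with their own number; in the other comparisons they ran from -0.17 to 0.12, with 1 of 5 above 0.1. A replicate block gave 4 transcript calls between miR-324-null tissues and left the short-form share of Homer1 at -12.4 points (sign-flip exact p = 0.125) between genotypes in neocortex and at -13.3 points (exact p = 0.0625, the smallest possible) between WT tissues; it changed no other count of calls by over 1.5 times. Neighbouring levels apart numbered 2 in miR-324-null neocortex on coding transcripts alone.

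Depth and 5 samples a group limit the smallest differences, and the estimated split of reads among transcripts adds error that these tests do not hold.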
